A study of Mus musculus with 10 samples.

Results

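The adrenergic receptor genes described here are Adra1a, Adra1b and Adra1d of the alpha1 class, Adra2a, Adra2b and Adra2c of the alpha2 class, and Adrb1 of the beta class. They were taken by gene symbol from the count files, which gave 7 of 54838 genes, and other adrenergic receptor genes were not analysed here. Their ribosome-bound RNA was compared between the dorsal and the ventral hippocampus by translating ribosome affinity purification with sequencing (TRAP-seq), in which a GFP-tagged ribosomal protein is pulled down together with the RNA it is translating. All libraries came from male mice of about 10 weeks, labelled as strain C57BL/6 and bred with C57BL/6J mice, with the genotype Drd2-Cre;Eef1a1 LSL.EGFP-L10a/+, in which Cre under Drd2 regulatory sequence switches on EGFP-L10a. The labels name the source as hippocampal mossy cells (MCs), the glutamatergic neurons of the dentate hilus, and give 5 Dorsal and 5 Ventral libraries. Each library was made from the pooled tissue of 5 mice, so that a pool of mice, not an animal, is replicated. Each hippocampus was divided into its dorsal and ventral parts, so both groups came from the same set of mice. The study describes labelling by this Cre line also in hippocampal GABAergic interneurons and in neurons of the ventral subiculum. The ventral subiculum was cut away at dissection, though the study allows that some of this tissue may have remained, and no unbound or input RNA was analysed here.

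Noradrenaline reaches the hippocampus in axons of the locus coeruleus and acts on 3 classes of G protein-coupled receptors. Alpha1 receptors couple to Gq and activate phospholipase C beta, which releases calcium and activates protein kinase C. Alpha2 receptors couple to Gi/o, which inhibits adenylyl cyclase and opens G protein-gated potassium channels, and they also act as autoreceptors on noradrenergic axons. Beta receptors couple to Gs, which activates adenylyl cyclase and protein kinase A. In the hippocampus these receptors are known from neurons, interneurons and glia, and noradrenaline acting on them is known to modulate excitability and synaptic plasticity in the dentate gyrus.

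Between 11138676 and 20594364 counts per library fell on genes, so that 3 counts, the floor used here, equalled 0.146 to 0.269 counts per 1000000 counts on genes (CPM) in a library, a limit that covers counting error only. The share of reads outside annotated genes was 27.0% ± 5.09 (SD, n = 5) in the dorsal and 14.4% ± 3.0 (SD, n = 5) in the ventral libraries, and the groups did not overlap (two-sided exact permutation p = 0.00794, a value no arrangement of 5 against 5 can go below). Among the mossy cell markers, Drd2 was measured at 28.1 ± 3.95 CPM dorsally and 20.7 ± 4.36 ventrally, while Csf2rb2 did not reach the expression filter. The summed CPM of 10 markers of GABAergic interneurons ran from 3383 to 4493 in the dorsal and from 4134 to 5374 in the ventral libraries, most of it from Gad2, a GABA-synthesizing enzyme, and Vip was the lowest at means of 3.61 and 4.27 CPM. Of these markers 3 were ventral-enriched and none dorsal-enriched, with log2 fold changes (dorsal over ventral) of -0.66 for Sst, -0.63 for Pvalb and -0.76 for Lhx6, and the median over the 10 was -0.49. As background to this and the following marker counts, 15.7% of all tested genes were dorsal-enriched and 9.85% ventral-enriched. The summed CPM of 8 astrocyte markers ran from 1858 to 2113 in the dorsal and from 688 to 1253 in the ventral libraries. Of these markers 4 were dorsal-enriched and 1, Aldh1l1, was ventral-enriched. Without Slc1a2, a glutamate transporter that made up most of the sum, the astrocyte sums overlapped, at 198 to 259 dorsally and 91.3 to 228 ventrally. For 7 oligodendrocyte markers, 4 of them dorsal-enriched, the sums were 2355 to 2828 and 843 to 1669 CPM. The sums of 6 granule cell markers were 322 to 389 and 155 to 291 CPM, with 2 dorsal-enriched genes. For 8 mossy cell markers the sums were 628 to 778 and 1174 to 1458 CPM, where Calb2 made up most of the ventral excess. The 7 mossy cell markers tested did not share a direction. Ajap1 and Gria3 were called dorsally, at 0.62 and 0.70 on the log2 scale. Satb1 and Calb2 were called ventrally, at -0.74 and -3.24, and 3 markers were not called. The median over these 7 was -0.10. In the lists for oligodendrocyte precursors, microglia, endothelium and mural cells, only the microglial C1qa was called, as dorsal-enriched. No astrocyte or oligodendrocyte marker was at 0 in every library, and the part of interneurons and of these other cells in the results that follow was not tested.

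All 7 receptor genes passed the expression filter of CPM above 1 in at least 2 libraries. Adra2b passed it only through its dorsal libraries, since its highest ventral value was 0.439 CPM. Its place in the counts below thus rests on the group in which it was higher. Adra2a, Adra2b and Adrb1 were dorsal-enriched, no receptor gene was ventral-enriched, and Adra1a, Adra1b, Adra1d and Adra2c were not called. To be called, a gene needed an adjusted p below 0.05 (edgeR's quasi-likelihood test, Benjamini-Hochberg over 16806 genes) together with mean CPM values that, with 1 added to each, differed by more than 0.58 on the log2 scale. The 3 of 7 receptor genes called dorsal-enriched, 42.9%, stand beside a background of 15.7% of all tested genes called dorsal-enriched and 9.85% called ventral-enriched, or 11.4% and 10.3% of protein-coding genes. The median log2 fold change (dorsal over ventral throughout) was 0.40 over the 7 genes and -0.0044 over all tested genes. In bulk RNA of this kind, fewer cells that express a receptor and less receptor RNA per cell cannot be told apart.

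**Figure D1:**
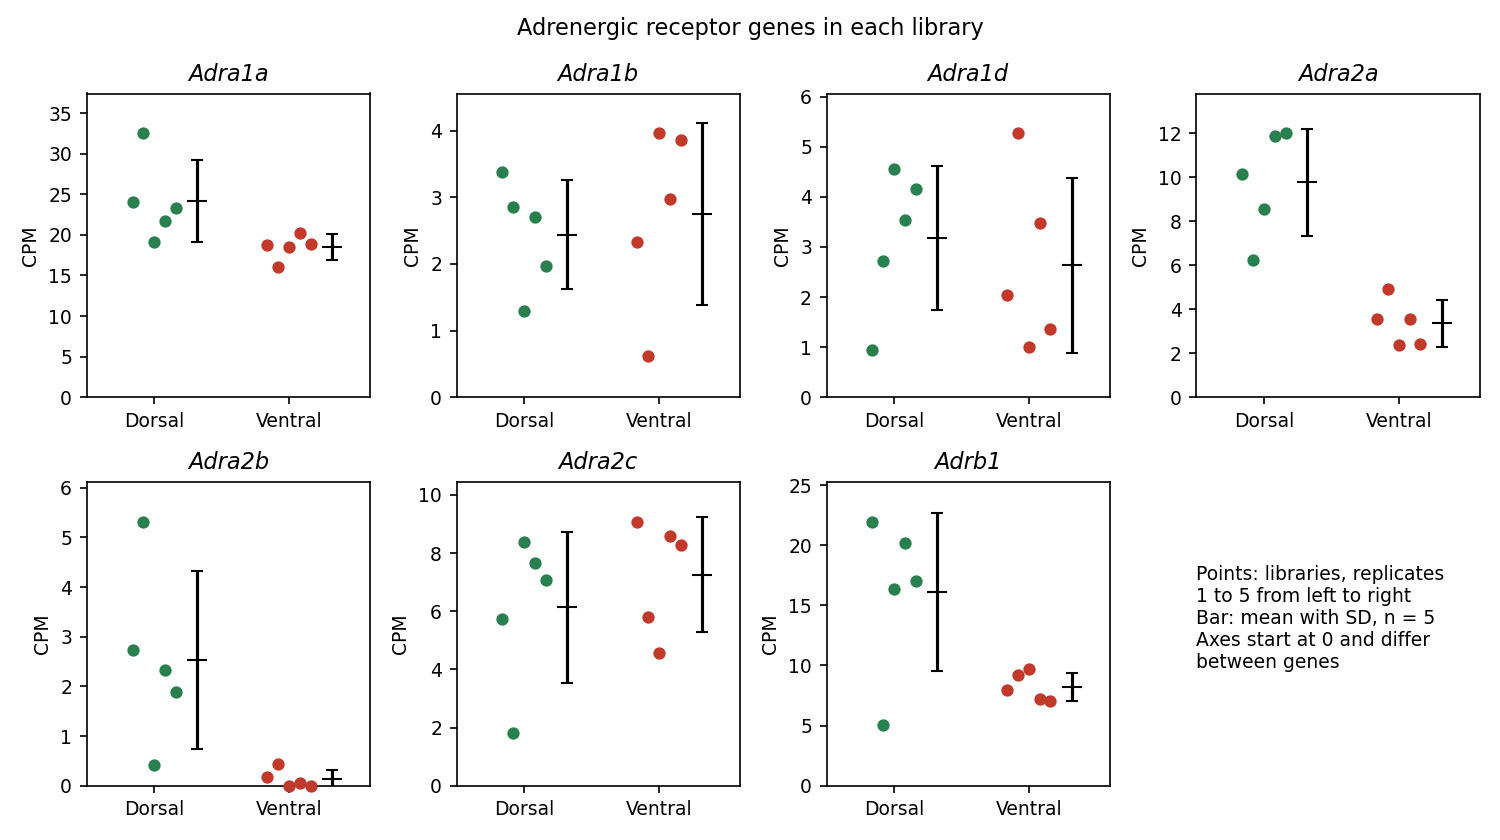
CPM of the 7 adrenergic receptor genes (vertical axes from 0, a different scale in each panel) in the 5 Dorsal (green) and 5 Ventral (red) libraries, with the mean and SD beside the points, the SD bar being drawn from 0 where it would pass below 0. Only the Adra2a panel has every dorsal point, at 6.22 CPM or more, above every ventral point, at 4.92 CPM or less.

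Adra2a encodes the alpha2A receptor, the main Gi/o-coupled autoreceptor and postsynaptic alpha2 receptor of the forebrain. The gene (ENSMUSG00000033717) lies at chr19:54044151-54048982 of GRCm38 on the plus strand and has its coding sequence in 1 exon. In the dorsal libraries, replicates 1 to 5, it was measured at 10.1, 6.22, 8.57, 11.9 and 12 CPM. The ventral libraries gave 3.54, 4.92, 2.36, 3.54 and 2.40 CPM. Every dorsal library was thus above every ventral one, which was so for 1 of the 7 receptor genes and for 9.81% of all tested genes. The ventral libraries lay wholly above the dorsal ones for none of the receptor genes and for 8.36% of all tested genes. The mean was 9.76 ± 2.42 CPM dorsally and 3.35 ± 1.05 ventrally (SD, n = 5 each), a 2.97-fold difference. On the log2 scale it was 1.57 with a standard error of 0.28 and a 95% interval of 0.97 to 2.17 (edgeR, adjusted p = 0.00119). With the share of reads outside genes as a covariate it was 2.10 (edgeR, adjusted p = 0.0237).

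Adra2b encodes the alpha2B receptor, known mainly from vascular smooth muscle and, in the brain, from the thalamus. The gene (ENSMUSG00000058620) lies at chr2:127363208-127367221 on the plus strand, again with 1 coding exon. It was covered by 29, 82, 6, 39 and 24 reads in dorsal replicates 1 to 5 and by 3, 5, 0, 1 and 0 reads in ventral replicates 1 to 5. In CPM these were 2.72, 5.32, 0.408, 2.34 and 1.88 dorsally and 0.166, 0.439, 0, 0.0631 and 0 ventrally. The groups met at their edges, since dorsal replicate 3 was below ventral replicate 2, and 4 of the 5 ventral libraries held no more than 3 counts. The means were 2.53 ± 1.79 and 0.134 ± 0.184 CPM (SD, n = 5 each), with a log2 fold change of 4.38, a standard error of 0.88 and a 95% interval of 2.53 to 6.23 (edgeR, adjusted p = 0.00173). Summed over libraries and corrected for depth, 180 dorsal against 9 ventral counts gave a ratio of 22.3, with an exact 95% interval of 11.5 to 49.6 that covers counting error only. Dorsal replicate 2 alone held 82 of the 180 counts, and without it the fitted value was 3.87 (edgeR, adjusted p = 0.00219). The summed CPM of 6 mural cell markers was 91.3 to 139 dorsally and 104 to 117 ventrally, and none of the 5 markers tested was called. Most of this sum was Rgs5, at means of 104 and 99.5 CPM. The smooth muscle marker Acta2 was at 3.59 ± 2.45 and 1.71 ± 0.880 CPM, a log2 fold change of 1.23 (edgeR, adjusted p = 0.0755). Vtn also had the higher mean dorsally, and Pdgfrb and Notch3 had it ventrally.

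Adra2c encodes the alpha2C receptor, the other Gi/o-coupled subtype found on forebrain neurons. The gene (ENSMUSG00000045318) lies at chr5:35278319-35281763 on the plus strand with 1 coding exon. Its levels were 5.73, 1.82, 8.37, 7.67 and 7.06 CPM dorsally and 9.08, 5.80, 4.55, 8.59 and 8.29 CPM ventrally, in replicate order. The groups overlapped over most of their range, and dorsal replicate 2 was the lowest of the 10 libraries. The means were 6.13 ± 2.60 and 7.26 ± 1.98 CPM (SD, n = 5 each), and the log2 fold change was -0.30 with a 95% interval of -0.99 to 0.39 (edgeR, adjusted p = 0.502). Without dorsal replicate 2 it was -0.039.

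Adrb1 encodes the beta1 receptor, the Gs-coupled receptor that is the main beta subtype of forebrain neurons. The gene (ENSMUSG00000035283) lies at chr19:56722199-56733113 on the plus strand, with its coding sequence in 1 exon. The dorsal libraries, replicates 1 to 5, gave 22, 5.06, 16.4, 20.2 and 17.0 CPM. The ventral libraries gave 7.97, 9.23, 9.69, 7.20 and 7.07 CPM. Dorsal replicate 2 was below all ventral libraries, and the other 4 dorsal libraries were above all of them. The means were 16.1 ± 6.60 and 8.23 ± 1.18 CPM (SD, n = 5 each), a 1.97-fold difference with a log2 fold change of 0.98, a standard error of 0.31 and a 95% interval of 0.32 to 1.63 (edgeR, adjusted p = 0.0255). The call depended on single libraries. Leaving out dorsal replicate 2 gave 1.22 on the log2 scale (edgeR, adjusted p = 0.000486), whereas the adjusted p was 0.0508 without dorsal replicate 1, 0.0753 without dorsal replicate 4, 0.0533 without dorsal replicate 5, 0.0575 without ventral replicate 4 and 0.0664 without ventral replicate 5. It was also lost with the share of reads outside genes as a covariate, which gave 1.5 on the log2 scale (edgeR, adjusted p = 0.123).

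**Figure D2:**
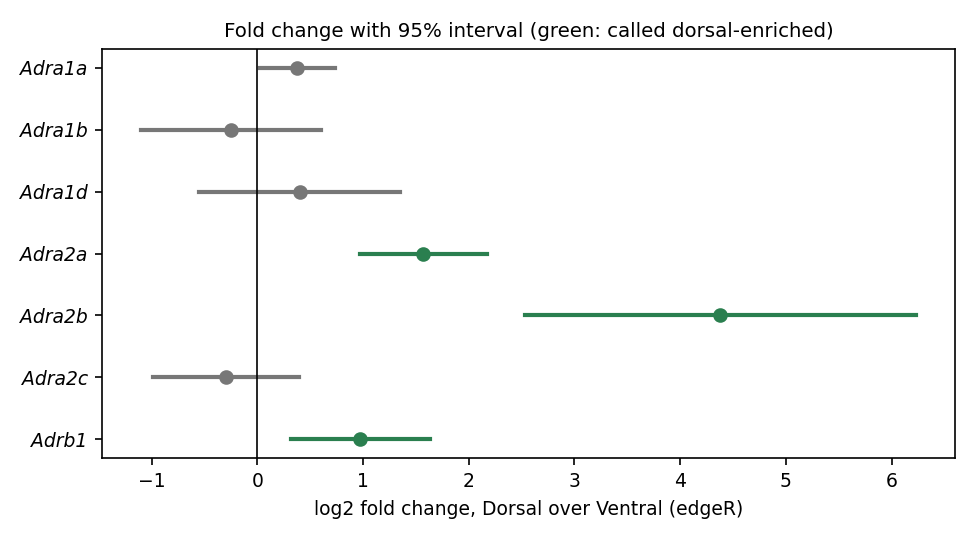
Log2 fold change of each receptor gene, dorsal over ventral (horizontal axis), with its 95% interval from edgeR; green marks a dorsal-enriched gene and grey one that was not called. The intervals of Adra2a, Adra2b and Adrb1 lie above 0 and those of Adra1b, Adra1d and Adra2c span it, while the interval of Adra1a starts at 0.023 but its adjusted p missed the threshold.

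The promoters of the 3 dorsal-enriched receptor genes are shown beside that of Adra2c, the alpha2 gene that was not called, because these 4 genes share a structure with 1 coding exon and differed in their dorsal to ventral ratio. The sequences are RefSeq's for GRCm38.p6, from 250 bases before to 50 bases after the RefSeq start, and were found for 5 of the 7 genes. They lie on the plus strand at chr19:54045009-54045308 for Adra2a, chr2:127362929-127363228 for Adra2b, chr5:35278316-35278615 for Adra2c and chr19:56721867-56722166 for Adrb1. Capitals mark matches, on either strand, to the GC box GGGCGG, the core of the cAMP response element TGACG, the TATA box TATAAA, the CCAAT box CCAAT and the nuclear receptor motif AGGTCA. Where the capitals read CCGCCC or ATTGG, the match is on the minus strand.
Adra2a: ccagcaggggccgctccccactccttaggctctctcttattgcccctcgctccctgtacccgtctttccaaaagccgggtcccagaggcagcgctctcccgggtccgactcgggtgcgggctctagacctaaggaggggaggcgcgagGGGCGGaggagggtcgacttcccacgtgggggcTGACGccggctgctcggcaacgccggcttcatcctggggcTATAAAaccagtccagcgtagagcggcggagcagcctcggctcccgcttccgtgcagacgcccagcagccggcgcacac
Adra2b: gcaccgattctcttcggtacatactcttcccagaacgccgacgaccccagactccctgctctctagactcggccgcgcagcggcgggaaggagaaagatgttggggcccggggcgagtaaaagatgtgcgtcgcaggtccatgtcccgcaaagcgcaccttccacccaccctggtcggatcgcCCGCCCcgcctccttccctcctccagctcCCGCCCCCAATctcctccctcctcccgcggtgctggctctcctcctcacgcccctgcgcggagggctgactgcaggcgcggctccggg
Adra2c: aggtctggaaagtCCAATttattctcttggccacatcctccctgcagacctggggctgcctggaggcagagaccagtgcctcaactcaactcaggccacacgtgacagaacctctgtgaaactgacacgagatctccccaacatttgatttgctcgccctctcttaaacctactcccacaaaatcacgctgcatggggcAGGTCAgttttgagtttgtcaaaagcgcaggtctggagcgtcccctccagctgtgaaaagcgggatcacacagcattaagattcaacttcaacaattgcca
Adrb1: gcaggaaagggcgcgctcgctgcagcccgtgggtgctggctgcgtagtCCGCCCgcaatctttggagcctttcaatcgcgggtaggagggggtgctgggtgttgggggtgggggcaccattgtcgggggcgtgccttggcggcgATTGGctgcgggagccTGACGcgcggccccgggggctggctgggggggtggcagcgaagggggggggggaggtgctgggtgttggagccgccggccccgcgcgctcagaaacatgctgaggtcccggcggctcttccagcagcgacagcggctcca

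A GC box was found in the windows of Adra2a, Adra2b, with 2 that overlap no other match, and Adrb1, and in none of the Adra2c window. Of all 32851 promoter windows of this length, 35.7% hold one, and so did 1 of the windows of Adra1b, which was not called. TGACG was found 69 bases before the start of Adra2a and 90 bases before that of Adrb1, and 20.8% of all windows hold it. TATAAA was found only in the Adra2a window among these 4, 29 bases before the start, as in 13.6% of all windows. CCAAT occurred in Adra2b, Adra2c and Adrb1 (37.4% of all windows) and AGGTCA in Adra2c (16.3%). The windows of Adra2a, Adra2b and Adrb1 held 28, 29 and 28 CpG dinucleotides, against 7 in that of Adra2c and a median of 7 over all windows. The Adra1b window with the GC box also held 28. The RefSeq start of Adra2a lies 1108 bases inside the GENCODE gene model and that of Adra2c 247 bases inside it, whereas those of Adra2b and Adrb1 lie 29 and 82 bases before theirs. These matches describe letters in a window, and no binding was measured here.

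Adra1a encodes the alpha1A receptor, a Gq-coupled subtype known from hippocampal interneurons. The gene (ENSMUSG00000045875) lies at chr14:66635251-66771168 on the plus strand, with up to 3 coding exons in a transcript. Its levels were 24, 32.6, 19.2, 21.7 and 23.3 CPM dorsally and 18.8, 16, 18.5, 20.3 and 18.9 CPM ventrally, in replicate order. Dorsal replicate 2 was the highest of all, and dorsal replicate 3 lay within the ventral range. The means were 24.2 ± 5.05 and 18.5 ± 1.56 CPM (SD, n = 5 each), with a log2 fold change of 0.38 and a 95% interval of 0.023 to 0.73 (edgeR, adjusted p = 0.0910). Without dorsal replicate 2 the log2 fold change was 0.24.

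Adra1b encodes the alpha1B receptor. The gene (ENSMUSG00000050541) lies at chr11:43774606-43901210 on the minus strand and has 2 coding exons. Its levels were 3.38, 2.85, 1.29, 2.70 and 1.96 CPM dorsally and 2.33, 0.615, 3.96, 2.97 and 3.86 CPM ventrally. The dorsal values lay within the ventral range, which ventral replicate 2 opened at its low end. The means were 2.44 ± 0.817 and 2.75 ± 1.37 CPM (SD, n = 5 each). The log2 fold change was -0.25 with a 95% interval of -1.10 to 0.61 (edgeR, adjusted p = 0.663).

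Adra1d encodes the alpha1D receptor, which is known from pyramidal and granule cell layers. The gene (ENSMUSG00000027335) lies at chr2:131545850-131562283 on the minus strand with 2 coding exons, and 7.74% of its exonic length is shared with the antisense gene Gm14285, so that its counts are uncertain to that extent. Its levels were 0.939, 2.72, 4.56, 3.54 and 4.16 CPM dorsally and 2.05, 5.27, 1.01, 3.47 and 1.37 CPM ventrally. Each group held both low and high libraries. The means were 3.18 ± 1.43 and 2.63 ± 1.75 CPM (SD, n = 5 each). The log2 fold change was 0.40 with a 95% interval of -0.55 to 1.35 (edgeR, adjusted p = 0.509). The intervals of Adra1b and Adra1d thus leave room for a difference of more than 1 log2 unit.

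Levels of different receptor genes were compared per length, as CPM per kilobase of exonic sequence (RPKM). In the dorsal libraries Adrb1 was highest at 4.77 ± 1.95 RPKM, followed by Adra1a at 2.77 ± 0.579, Adra2a at 2.02 ± 0.502, Adra2c at 1.78 ± 0.754, Adra1d at 1.68 ± 0.754, Adra1b at 0.721 ± 0.241 and Adra2b at 0.631 ± 0.445 (SD, n = 5). The ranges of all neighbours in this order overlapped. In the ventral libraries the order was Adrb1 at 2.43 ± 0.350 RPKM, Adra1a at 2.12 ± 0.178, Adra2c at 2.11 ± 0.574, Adra1d at 1.39 ± 0.921, Adra1b at 0.812 ± 0.405, Adra2a at 0.694 ± 0.217 and Adra2b at 0.0333 ± 0.0458. Here only Adra2a and Adra2b had ranges apart. Adra2a stood in the third place dorsally and in the sixth ventrally. Adrb1 and Adra1a held the highest mean levels in both groups.

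By class, the alpha1 genes summed to 5.16 ± 0.644 RPKM dorsally and 4.32 ± 0.550 ventrally, the alpha2 genes to 4.43 ± 0.822 and 2.84 ± 0.623, and Adrb1 alone to the values above. The sum over the 7 genes ran from 10.6 to 16.4 RPKM in the dorsal libraries and from 8.5 to 10.4 in the ventral ones. As shares of that sum, the alpha1 class made up 37.2% ± 11.1 dorsally and 45.0% ± 2.92 ventrally, the alpha2 class 30.7% ± 1.44 and 29.4% ± 5.37, and Adrb1 32% ± 10.8 and 25.6% ± 5.0 (SD, n = 5). The alpha2 shares of the groups overlapped, while within the class the mean level of Adra2a and Adra2b was higher dorsally and that of Adra2c was not. Dorsal replicate 2 departed from the other dorsal libraries in its make-up, with 56.4% from the alpha1 class and 14.1% from Adrb1, against at most 35.2% and at least 32.5% in the other 4.

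**Figure D3:**
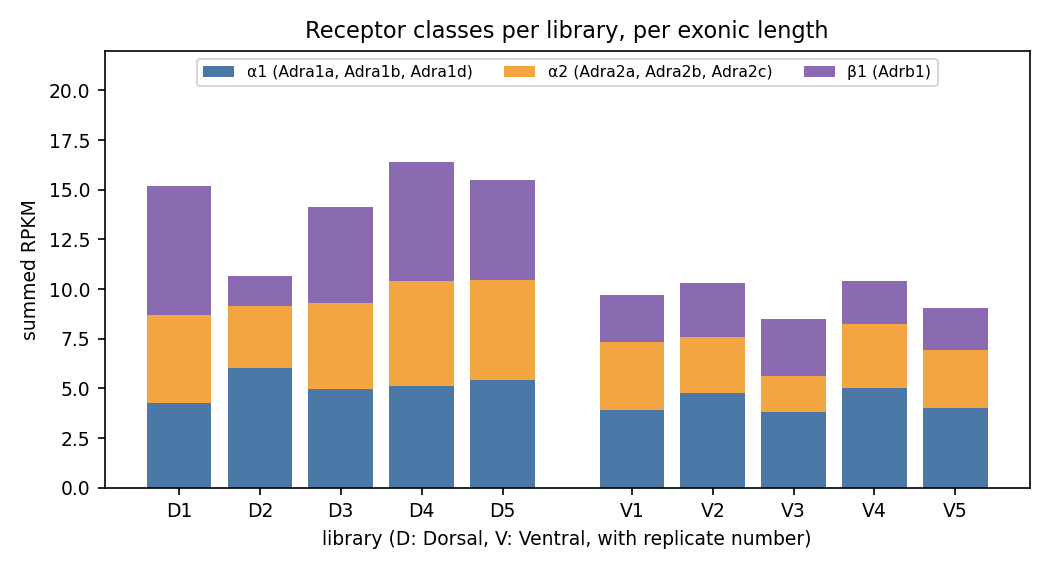
Summed RPKM (CPM per kilobase of exonic length) of the alpha1, alpha2 and beta1 receptor genes, stacked for each Dorsal (D1 to D5) and Ventral (V1 to V5) library. The dorsal totals of 10.6 to 16.4 RPKM lie above the ventral totals of 8.5 to 10.4, and D2 has the lowest dorsal total and the smallest beta1 segment.

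To compare subtypes of a class with one another, the log2 ratio of 2 genes was taken within each library, with 0.5 added to each CPM, and 6 such pairs were tested between the groups by an exact permutation test (two-sided). Adra2a over Adra2c had a mean log2 ratio of 0.73 ± 0.54 in the dorsal and -1.01 ± 0.52 in the ventral libraries (SD, n = 5 each), a difference of 1.74 (exact p = 0.00794, the smallest that 5 against 5 can give, adjusted p = 0.0476 over the 6 pairs). The ratio was above 0 in all dorsal and below 0 in all ventral libraries, so that Adra2a led dorsally and Adra2c ventrally on the CPM scale. Per exonic length, Adra2c was above Adra2a in dorsal replicate 3, at 2.43 against 1.77 RPKM. Adra2b over Adra2c was -1.22 ± 1.67 dorsally and -3.62 ± 0.57 ventrally (SD, n = 5 each), a difference of 2.40 (exact permutation p = 0.0159, adjusted p = 0.0476). With 1 in place of 0.5 added to the CPM the difference in Adra2b over Adra2c was 1.79 (exact permutation, adjusted p = 0.0714). For Adra2a over Adra2b the difference was -0.65 (exact permutation, adjusted p = 0.417), and among the alpha1 genes it was 0.40 for Adra1a over Adra1b, 0.073 for Adra1a over Adra1d and -0.33 for Adra1b over Adra1d (exact permutation, adjusted p from 0.417 to 0.937). The differences in the alpha1 pairs did not exceed the spread between libraries. For Adra2a over Adra2b, ventral Adra2b at 0 to 0.439 CPM lay below the 0.5 added, which compresses the ratio. With 1 added the difference was -0.19, and this test cannot tell whether these 2 genes differ in their dorsal to ventral ratio.

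**Figure D4:**
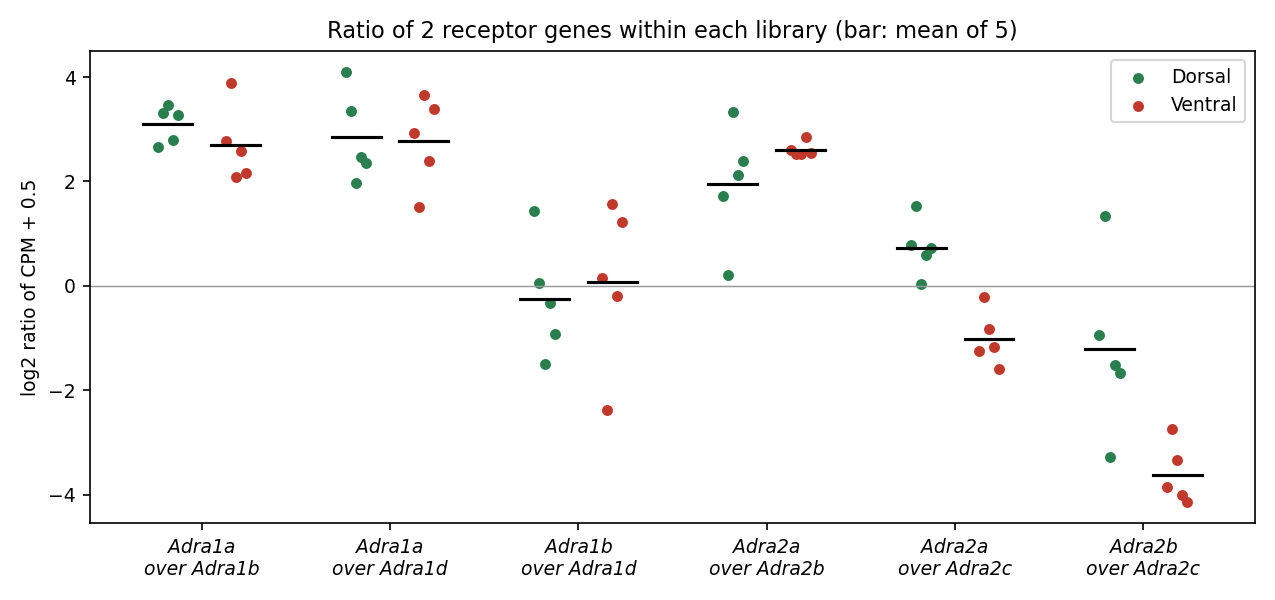
Log2 ratio of the CPM plus 0.5 of 2 receptor genes of a class (vertical axis) within each library, for 6 pairs, with Dorsal libraries in green, Ventral in red and the mean of 5 as a black bar. The Adra2a over Adra2c ratios lie between 0.033 and 1.54 dorsally and between -1.60 and -0.22 ventrally, whereas the groups overlap in the other 5 pairs.

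The 4 genes with their coding sequence in 1 exon, which are the alpha2 genes and Adrb1, included all 3 dorsal-enriched members, and none of the alpha1 genes, whose coding sequence is interrupted, was called. Among protein-coding genes, 15.2% of the 870 tested genes with 1 coding exon and 11.1% of the 12679 with several were dorsal-enriched, beside 10.9% and 10.3% that were ventral-enriched. The median log2 fold changes of these sets were -0.013 and -0.042.

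For each receptor gene, the 2 other protein-coding genes with the most similar pattern over the 10 libraries were found by Pearson's r of log2(CPM + 1) among 13548 tested genes. They were Wdpcp (r = 0.977) and Thsd7a (r = 0.974) for Adra2a, Ebag9 (r = 0.984) and Dok1 (r = 0.979) for Adra2b, and Pgm1 (r = 0.980) and Zbtb8b (r = 0.961) for Adra2c. For Adrb1 they were Pgap2 (r = 0.978) and Abca8b (r = 0.969). For the alpha1 genes they were Cabcoco1 (r = 0.963) and Trp53bp2 (r = 0.956) with Adra1a, Ddr1 (r = 0.965) and Palm3 (r = 0.961) with Adra1b, and Hhipl1 (r = 0.934) and Clasrp (r = 0.927) with Adra1d. These are the highest of many correlations over 10 libraries that share a dorsal to ventral difference, and are given as a description. No gene was among the most similar of more than 1 receptor.

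Of 69 genes that make, remove or carry the signal of noradrenaline, 64 passed the filter. Of these, 10 were dorsal-enriched (15.6%) and 5 ventral-enriched (7.81%), shares close to the background of 15.7% and 9.85%, and their median log2 fold change was -0.12. Among the 9 alpha subunits of the Gq, Gi/o and Gs proteins none was called. The most abundant, Gnao1 of Go, was at 850 ± 89.8 CPM dorsally and 972 ± 39.0 ventrally (SD, n = 5 each; edgeR, adjusted p = 0.101).

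On the Gq side, 2 of 9 tested genes for phospholipase C beta, IP3 receptors and protein kinase C were dorsal-enriched and none was ventral-enriched. The dorsal share of 22.2% stands beside 15.7% of all tested genes, of which 9.85% were ventral-enriched. Plcb4, a phospholipase C beta, was at 240 ± 12.6 CPM dorsally and 125.8 ± 25.2 ventrally, a log2 fold change of 0.94 (edgeR, adjusted p = 0.000182). Prkca, protein kinase C alpha, was at 397 ± 42.8 and 258 ± 22.1 CPM, a log2 fold change of 0.62 (edgeR, adjusted p = 0.00054). It fell just under the fold threshold, to 0.56, without dorsal replicate 1.

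Of 14 genes for adenylyl cyclases and protein kinase A, 3 were dorsal-enriched and 1 was ventral-enriched. These shares, 21.4% and 7.14%, stand beside 15.7% and 9.85% of all tested genes. Adcy1, the calmodulin-stimulated neuronal cyclase, was at 741 ± 71.4 CPM dorsally and 329 ± 44.6 ventrally, with a log2 fold change of 1.17 (edgeR, adjusted p = 1.63e-05). Adcy5 and Adcy6, cyclases that Gi/o inhibits, had log2 fold changes of 0.65 and 0.80 (edgeR, adjusted p = 0.00248 and 0.0249). The Adcy5 call was lost without ventral replicate 2, where its fitted log2 fold change was 0.59 and the ratio of the mean CPM plus 1 missed the threshold, and the Adcy6 call without dorsal replicate 4 (0.77), dorsal replicate 5 (0.82) or ventral replicate 5 (0.78). Prkacb, a catalytic subunit of protein kinase A, moved the other way, at 416 ± 46.4 CPM dorsally and 686 ± 70.0 ventrally, a log2 fold change of -0.72 (edgeR, adjusted p = 0.000253).

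The G protein-gated potassium channels, onto which alpha2 receptors act, were called in 3 of 4 genes and in both directions. Kcnj3 was at 294 ± 46.6 CPM dorsally and 156 ± 25.1 ventrally, with a log2 fold change of 0.92 (edgeR, adjusted p = 0.000325). Kcnj6 was at 31.7 ± 2.47 and 14.8 ± 5.06 CPM, with a log2 fold change of 1.08 (edgeR, adjusted p = 0.00128). Kcnj9 was ventral-enriched, at 21.4 ± 2.70 and 41.5 ± 9.15 CPM, with a log2 fold change of -0.94 (edgeR, adjusted p = 0.00112). The dorsal and ventral libraries did not overlap in any of these 3 genes, which are the called ones. Of all tested genes, 15.7% were dorsal-enriched and 9.85% ventral-enriched. Every dorsal library was above every ventral one for 9.81% of them, and the reverse held for 8.36%.

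Among 7 receptor kinases and arrestins, which end receptor signalling, only Grk5 was called, at 53.5 ± 15.0 CPM dorsally and 21.8 ± 2.81 ventrally, a log2 fold change of 1.30 (edgeR, adjusted p = 0.000321). Of 15 RGS genes, whose proteins shorten the active state of G proteins, 1 was dorsal-enriched and 3 were ventral-enriched. Dorsal-enriched were 14.3% of the kinases and arrestins and 6.67% of the RGS genes, beside 15.7% of all tested genes. Ventral-enriched were 20% of the RGS genes, beside 9.85% of all tested genes. Rgs3 had a log2 fold change of 1.27 (edgeR, adjusted p = 0.0214), a call that was lost without dorsal replicate 3 (1.06) or dorsal replicate 5 (1.19). The ventral-enriched genes were Rgs12 at -1.04, Rgs4 at -0.64 and Rgs16 at -1.26 on the log2 scale (edgeR, adjusted p = 0.000201, 0.0032 and 0.0224). Rgs4 fell under the fold threshold without dorsal replicate 2 (-0.57), and the Rgs16 call was lost without dorsal replicate 3 (-1.09) or ventral replicate 5 (-1.19).

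None of the 4 tested genes for noradrenaline uptake and breakdown was called. The most abundant, Maoa, a monoamine oxidase, was at 49.7 ± 13.2 CPM dorsally and 61.6 ± 13.4 ventrally (SD, n = 5 each; edgeR, adjusted p = 0.219). The noradrenaline transporter Slc6a2 and the synthesizing enzymes Th and Dbh did not reach the filter, with means of at most 0.308 CPM in either group. Slc18a2, which packs monoamines into vesicles, was dorsal-enriched at 16.6 ± 4.85 against 8.34 ± 1.74 CPM, a log2 fold change of 1.01 (edgeR, adjusted p = 0.00669). With the share of reads outside genes as a covariate, 4 of these 10 dorsal-enriched genes (Prkca, Adcy1, Kcnj3 and Grk5) and none of the 5 ventral-enriched ones were called.

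**Figure D5:**
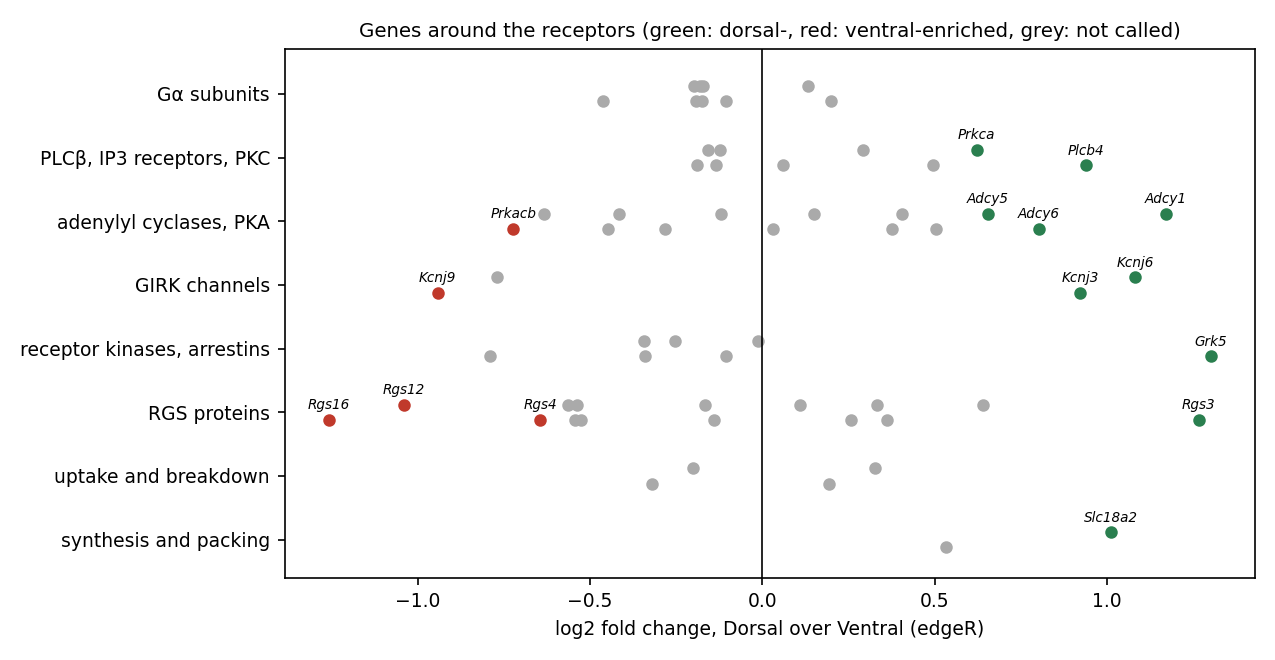
Log2 fold change, dorsal over ventral (horizontal axis), of the 64 tested genes around the adrenergic receptors, one row per group of genes, with dorsal-enriched genes in green, ventral-enriched genes in red and uncalled genes in grey. The 10 green and 5 red points are spread over 6 of the 8 groups, and the potassium channels, the cyclase and kinase genes and the RGS genes have both colours.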

How the data were processed

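RNA bound to EGFP-tagged ribosomes was amplified and sequenced by the authors as paired ends, aligned to GRCm38 with STAR 2.5.2b and counted per gene with HTSeq-count 0.7.2. The deposited values are raw counts, 1 file per library, not normalized. The annotation release and the strand setting of the counting are not given in the sources used here. Groups came from the sample labels. Rows for reads outside genes, ambiguous or unaligned reads were kept out of library sizes and tests. The share outside genes is given with the results. GENCODE M21, an annotation of GRCm38, gave symbols and coordinates for 54809 of 54838 gene identifiers.

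Counts were tested in R 4.3.3 with edgeR 4.0.16 (TMM, glmQLFit with the current dispersion method, glmQLFTest). The filter asked for CPM above 1 in 2 or more libraries. A call needed an adjusted p (Benjamini-Hochberg over 16806 genes) below 0.05 and a difference of more than 0.58 between the log2 of the group means, each with 1 CPM added. The standard error was taken as the fitted log2 value divided by the square root of F. Pair ratios were tested in SciPy 1.17.1. The test was checked on simulated data.

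All 7 receptor genes are described. From each signalling list the called genes, at most 4, are named, or else the most abundant, and for each receptor the 2 genes most like it. The members and lists were chosen with earlier results of these data known. Dorsal and ventral pools came from the same set of mice, but neither the labels nor the methods say whether pools of one number held the same animals, so the main test has no pairing. The p-values measure the spread between these pools. The alternatives are given with their effects below. They covered scaling, filters, tests, a replicate block, GC content and length, the share outside genes, and each library left out.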

Additional observations from a re-analysis of the deposited data

How the results depend on the processing

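Adra2a and Adra2b were called dorsal-enriched under every alternative in which they were tested and without each library in turn. Adra2a gave log2 fold changes of 1.54 to 2.10 over 13 alternatives, and Adra2b 4.25 to 5.10 over 12, since a filter of CPM above 1 in at least 5 libraries removed it. Adrb1 kept its call in 12 of 13 and in 5 of 10 sets with a library left out (log2 fold change 0.86 to 1.22). The covariate for the share outside genes, which separates the groups and so cannot be told apart from region, gave 1.5 for Adrb1 (edgeR, adjusted p = 0.123), turned Adra1b to 0.15, Adra1d to -0.18, Adra2c to 0.065 and Maoa to 0.49, and left 834 dorsal- and 339 ventral-enriched genes in all, with 4 and 0 of the signalling genes. The cause was not tested. Restricting the test to the 13549 protein-coding genes gave 1643 dorsal-enriched genes, where the main test had called 1540 of them. DESeq2 called 2559 and 1458 genes. The dispersion method of edgeR 3, chosen after seeing the data, called 2217 and 1408. Adra2b over Adra2c was 1.79 with a pseudocount of 1. With a library left out, the smallest p is 0.0159 and cannot pass the adjustment unless several pairs reach it, so lost calls there say nothing about stability. The differences in these sets ran from 1.54 to 1.94 for Adra2a over Adra2c and 1.76 to 2.91 for Adra2b over Adra2c. For Adra2a over Adra2b they ran from -0.99 to -0.22, with a lowest adjusted p of 0.0317 (exact permutation). The 0.5 added compresses this ratio, as above. Adra1a over Adra1b gave 0.25 to 0.70. The ranges were -0.24 to 0.29 for Adra1a over Adra1d and -0.94 to 0.046 for Adra1b over Adra1d. The ventral-enriched signalling genes numbered 4 to 8 with a library left out and 0 to 7 over the 13 alternatives. Adcy6 lost its call with no filter (edgeR, adjusted p = 0.0764) and Prkca with GC content and length offsets, where its ratio missed the fold threshold. Same-numbered libraries did not deviate together (correlation of their deviations -0.032 to 0.070, none above 0.1), which cannot show whether they held the same animals. With a replicate block 2656 dorsal- and 1672 ventral-enriched genes were called, and Adrb1 had a log2 fold change of 0.97. With the block and the GC and length offsets Rgs16 was at -1.14 (edgeR, adjusted p = 0.071). At 3 counts or fewer in 4 ventral libraries, depth limits the Adra2b ratio.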
